A study of Mus musculus with 17 samples.

Results

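Skeletal stromal/stem cells (SSCs) carrying 2 copies of the Cxcr4 1013 allele were compared with SSCs carrying 1 copy, gene by gene, to ask what the second mutant allele adds in these cells. The comparison used 5 of the 17 RNA-seq libraries of the series, chosen by their sample titles: 2 from homozygous Cxcr41013/1013 mice (1013/1013) and 3 from heterozygous Cxcr4+/1013 mice (+/1013). The 3 wild-type (WT) SSC libraries entered the estimate of the spread, and the 9 libraries of osteoprogenitor cells (OPCs) served for comparison. The 1013 allele was introduced by knock-in and is carried by every cell of the animal, so blood cells and bone cells of these mice bear the same genotype. All mice were described as littermate females of 8 to 12 weeks. Each library came from about 3000 cells sorted from the digested long bones of a pool of 3 mice, as cells lacking CD45, Ter119 and CD31 and carrying Sca-1, CD51 and PDGFRα. A library is therefore the average of 3 animals, and with 2 against 3 libraries a two-sided exact permutation test cannot fall below p = 0.2 for a single gene.

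CXCR4 is the G protein-coupled receptor for the chemokine CXCL12, which bone stromal cells secrete in large amounts and which retains blood stem cells in the marrow. After binding its ligand the receptor is normally phosphorylated on its cytoplasmic tail by G protein-coupled receptor kinases, bound by arrestins, and internalized. The 1013 allele removes the end of that tail, as in the inherited immunodeficiency WHIM syndrome, and the truncated receptor signals for longer. SSCs can give rise to osteoblasts, chondrocytes and adipocytes.

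The +/1013 libraries held 49628208, 48626392 and 49160847 reads on genes and the 1013/1013 libraries 44217695 and 50509592. Levels are given below as CPM, which are read counts scaled to a common library size (TMM), in replicate order, and a limit of detection of 3 reads stood at 0.0622 to 0.0695 CPM. The genes of the positive sorting markers were expressed in all 5 libraries. Ly6a, which encodes Sca-1, was at 1653, 1075 and 1192 CPM in +/1013 and 1826 and 1014 CPM in 1013/1013. Pdgfra was at 440 to 629 CPM and 413 to 581 CPM, and Itgav, the gene of CD51, at 21.5 to 43.2 CPM and 32.1 to 39.0 CPM. For each of these 3 genes the groups overlapped, and the 7 genes of sorting markers, positive and negative, had a median log2 fold change of 0.09. Xist and transcripts of the Y chromosome were both present in all 5 libraries, although the mice were described as females: Xist lay at 6.76 to 49.7 CPM and the Y-linked Eif2s3y at 18.2 to 42.9 CPM.

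The 1013/1013 libraries were unlike each other, and replicate 1 stood apart from all other SSC libraries. Of 8635 genes expressed at 10 CPM or more, 26.3% differed over 2-fold between the 1013/1013 replicates, while 5.92% to 12.2% did so between +/1013 replicates. Replicate 2 differed over 2-fold from the +/1013 libraries at 4.64% to 8.13% of genes, no further than +/1013 libraries lay from each other, and replicate 1 at 22.5% to 28.2%. WT and +/1013 libraries differed at 7.60% to 25.5% of genes. Replicate 1 also had the fewest genes detected of the 5 libraries, 15748 against 17808 to 19227, and 15748 against 17686 to 19080 after all libraries were thinned to its depth. It had the largest share of mitochondrial transcripts, 2.36% of reads against 0.337% to 1.01% in the other 4. Genes that were plainly expressed elsewhere had no read in it: of 11215 genes at 1 CPM or more in each +/1013 library, 579 were at 0 reads in replicate 1, 11 in replicate 2 and 9 in both. Examples are Ggta1, a glycosyltransferase gene at 40.6 to 72.0 CPM in +/1013, 72.8 CPM in replicate 2 and 0 in replicate 1, and Tbx4, a hindlimb transcription factor gene at 24.2 to 40.9 CPM, 44.6 CPM and 0. RNA quality and the number of cells captured were not among the data, and their part in this distance was not tested. Results below are therefore given for each 1013/1013 library as well as for both.

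**Figure D1:**
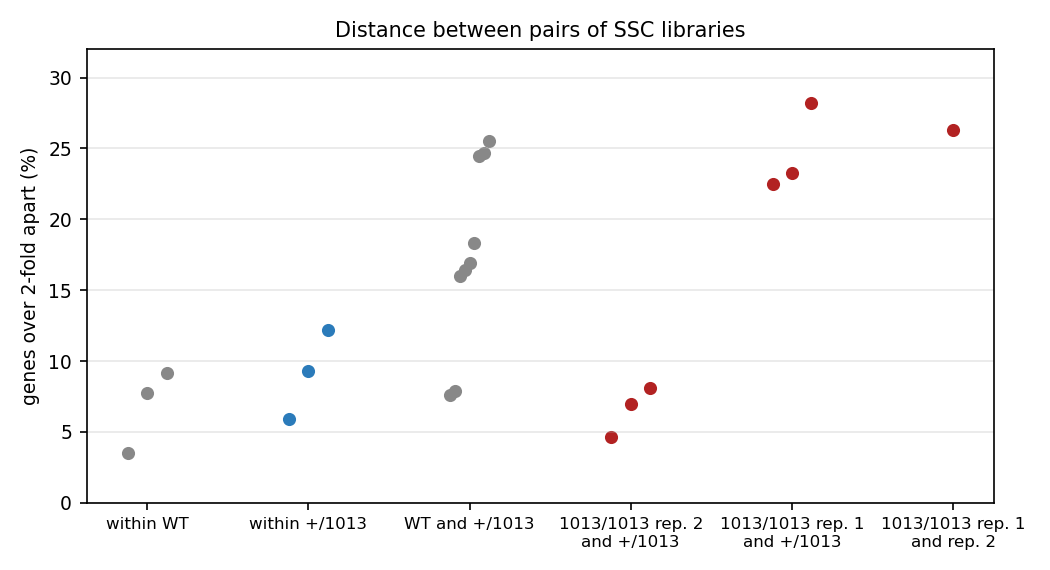
Share of 8635 genes (10 CPM or more) that differed over 2-fold between 2 SSC libraries, in percent, where each point is a pair of libraries and the columns are kinds of pair. Pairs of 1013/1013 replicate 2 with +/1013 libraries lie at 4.64% to 8.13%, within reach of the pairs within +/1013, and pairs with replicate 1 at 22.5% to 28.2%.

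No gene passed the test of the second allele. Of 17659 genes tested with edgeR's quasi-likelihood test, 0 (0%) were called, which required a 1.5-fold change and an adjusted p (Benjamini-Hochberg) under 0.05, and the smallest adjusted p was 0.788. At an unadjusted p under 0.05 there were 977 genes (5.53%), 446 of them higher (2.53%) and 531 lower (3.01%) in 1013/1013. Both 1013/1013 libraries lay above all 3 +/1013 libraries for 1245 genes (7.05%) and below them for 1560 (8.83%). DESeq2's Wald test on the same counts called 246 of 16614 genes (1.48%), 76 higher (0.457%) and 170 lower (1.02%). Of these, 21 were at 10 CPM or more, and 125 had no read in a whole group, either both 1013/1013 or all 3 +/1013 libraries. The call count rested on which 1013/1013 library was kept. Replicate 2 alone against the +/1013 libraries gave 0 calls of 19775 genes with edgeR, and replicate 1 alone gave 1812 of 19758 (9.17%), 186 higher (0.941%) and 1626 lower (8.23%). Over all 17659 genes tested, replicate 1 lay below all 3 +/1013 libraries for 6063 genes and above them for 4839. Replicate 2 lay below them for 3154 genes and above them for 3859. A lone library has no spread of its own and was assumed to vary like the other groups. The transcripts called lower in replicate 1 had a median exonic length of 5082.5 bases, and those called higher 4173 bases. Over all genes tested the median was 3783 bases. It was 4521 bases over the genes at 1 CPM or more in each +/1013 library. The 579 of these with 0 reads in replicate 1 had a median of 4285.5 bases.

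Transcripts of white blood cells were the list that stood highest in both 1013/1013 libraries. Of 22 leukocyte genes tested, 19 were higher in 1013/1013 and 14 were higher without overlap between the groups (63.6%, against 7.05% of all genes), while none was lower without overlap. The median log2 fold change of the list was 2.79, against -0.05 over all genes tested, and it was 2.63 for replicate 1 alone and 2.45 for replicate 2 alone. None of the 22 was called by edgeR, 9 were at an unadjusted p under 0.05, and DESeq2 called 5 of them: Tyrobp, Lyz2, S100a9, Cd79b and Elane. CD45-positive cells had been gated out in the sort.

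Retnlg, a secreted resistin-like protein of neutrophils, was at 0.145, 1.06 and 1.16 CPM in +/1013 and at 131 and 90.3 CPM in 1013/1013. Its log2 fold change was 7.13 (SE 1.09; edgeR adjusted p = 0.788, DESeq2 adjusted p = 6.44e-10). WT libraries were at 36.7, 9.97 and 83.1 CPM. Both 1013/1013 values lay above all WT values, and all +/1013 values lay below them. On the low side, the highest +/1013 value, 1.16 CPM, was far from the lowest WT value, 9.97 CPM. On the high side, the lower 1013/1013 value, 90.3 CPM, was near the highest WT value, 83.1 CPM. Ccl6, a chemokine of myeloid cells, was at 0.186, 0.810 and 0.484 CPM against 42.4 and 18.8 CPM, with WT at 1.75 to 8.64 CPM. The inflammatory cytokine gene Il1b was at 0.0414, 2.32 and 0.736 CPM against 144 and 23.2 CPM, and the lectin receptor gene Clec4e had reads in 1 of 3 +/1013 libraries, at 0.602 CPM, against 85.4 and 11.04 CPM. Mmp9, which encodes the gelatinase of neutrophils and osteoclasts, was at 0.767, 0.533 and 3.13 CPM against 158 and 62.7 CPM. Cd14, the co-receptor for bacterial lipopolysaccharide, was better expressed in +/1013, at 17.5, 13.9 and 21.9 CPM, and stood at 221 and 54.6 CPM in 1013/1013. In all 6 genes the groups did not overlap and replicate 1 was the higher of the 1013/1013 libraries, by the least for Retnlg and the most for Clec4e. They were named because they had the smallest p-values among expressed genes without overlap, so their separation is how they were found.

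Lyz2, the lysozyme gene of macrophages and neutrophils, was at 31.6, 17.7 and 31.6 CPM against 591 and 204 CPM. The calprotectin subunit gene S100a9 was at 35.3, 9.79 and 6.24 CPM against 264 and 186 CPM, and its partner S100a8 at 20.3, 6.30 and 2.14 CPM against 145 and 91.9 CPM. The B cell receptor gene Cd79b had 0.642, 0 and 0.126 CPM against 14.4 and 9.01 CPM. The defining genes did not all follow. Ptprc, which encodes CD45, was at 0.124, 1.11 and 0 CPM in +/1013 and at 0.0462 and 11.1 CPM in 1013/1013, so it was seen in replicate 2 and at only 2 reads in replicate 1. Csf1r, the receptor gene of macrophages, had 0 reads in replicate 1. Ltf, a granule protein gene of maturing neutrophils, was at 21.01, 0.278 and 3.01 CPM against 0.0924 and 1.17 CPM.

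Summed over the list, leukocyte transcripts made up 2140, 138 and 79.7 CPM in +/1013 and 1530 and 814 CPM in 1013/1013. The first +/1013 value was almost all the antibody light chain gene Igkc, at 1894 CPM; without the antibody genes Igkc and Ighm the sums were 238, 112 and 75.7 CPM against 1390 and 755 CPM. The WT libraries, at 1340, 392 and 13200 CPM, all lay above the +/1013 libraries, and 1 of them lay below both 1013/1013 libraries. The summed level thus ranged more widely over the WT replicates than over the mutant libraries. This holds for the sum and not for each gene. For Retnlg and Ccl6 the mutant genotypes lay further apart in fold than the WT replicates did. More cells of a type and more RNA per cell cannot be told apart in bulk libraries, and the part of admixed blood cells in these differences was not tested.

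**Figure D2:**
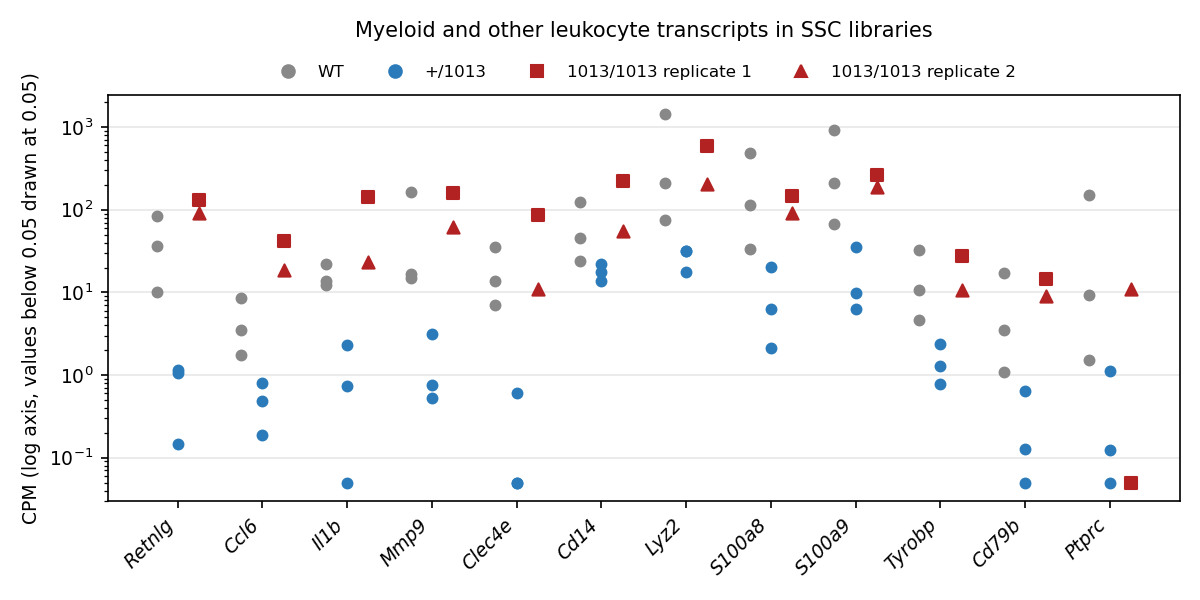
CPM on a log axis of 12 leukocyte and myeloid genes in each SSC library, by genotype, with values below 0.05 CPM drawn at 0.05. For the first 11 genes both 1013/1013 libraries (square and triangle) lie above the 3 +/1013 libraries, while Ptprc is at 11.1 CPM in replicate 2 and at 2 reads in replicate 1.

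The promoters of 4 of these genes are printed because they stood higher together and because myeloid genes are classically driven by the transcription factors C/EBP and PU.1, and inflammatory ones by NF-kB. The sequences are the 250 bases before each gene's start, from RefSeq on GRCm38.p6, 5′ to 3′ on the strand of the gene. Capitals mark the C/EBP letters TTGCNNAA on either strand.
Retnlg, chr16:48872358-48872607, plus strand: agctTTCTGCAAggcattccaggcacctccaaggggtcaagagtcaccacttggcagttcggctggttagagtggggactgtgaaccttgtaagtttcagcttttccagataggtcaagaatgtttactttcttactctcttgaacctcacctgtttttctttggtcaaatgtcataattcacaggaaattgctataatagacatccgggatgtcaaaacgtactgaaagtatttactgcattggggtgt
Ccl6, chr11:83593088-83593337, minus strand: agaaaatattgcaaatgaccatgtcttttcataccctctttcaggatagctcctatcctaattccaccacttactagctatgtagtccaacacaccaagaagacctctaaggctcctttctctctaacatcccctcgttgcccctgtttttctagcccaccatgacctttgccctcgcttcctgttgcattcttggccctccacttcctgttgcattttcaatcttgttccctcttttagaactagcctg
Il1b, chr2:129371140-129371389, minus strand: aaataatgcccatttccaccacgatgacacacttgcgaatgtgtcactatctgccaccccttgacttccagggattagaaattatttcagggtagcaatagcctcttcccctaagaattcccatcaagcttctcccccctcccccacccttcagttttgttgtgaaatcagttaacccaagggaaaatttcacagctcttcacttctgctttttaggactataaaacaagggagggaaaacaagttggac
Clec4e, chr6:123289872-123290121, minus strand: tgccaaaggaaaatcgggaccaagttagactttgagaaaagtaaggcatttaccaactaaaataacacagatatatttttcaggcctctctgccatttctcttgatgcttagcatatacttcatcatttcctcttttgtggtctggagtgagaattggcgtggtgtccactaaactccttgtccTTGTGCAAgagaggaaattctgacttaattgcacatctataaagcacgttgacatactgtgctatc
Of the 6 myeloid genes with a promoter in the table (these 4, Lyz2 and S100a9), the C/EBP letters occurred in 3, Retnlg, Clec4e and S100a9. They occur in 9.56% of 32851 promoters. Searched in the same way on both strands, the PU.1 letters GAGGAAGT, found in 2.44% of promoters, and the NF-kB consensus, found in 7.25%, were in none of the 6. A match of letters is a description and does not show binding.

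Away from leukocyte genes, the expressed genes that best separated the groups were of mixed function. Among 8305 genes at 10 CPM or more, 217 (2.61%) were at least 1.5-fold higher and 291 (3.5%) at least 1.5-fold lower without overlap. The 12 with the smallest p in each direction are described here, and all but the 6 myeloid genes above follow. DESeq2 called 5 of the 12 higher genes, all of them myeloid, and 10 of the 12 lower genes. Since the edgeR adjusted p was 0.788 for each, these are levels and not calls.

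Nfkb2 encodes the p100 precursor of the noncanonical NF-kB pathway. It was at 27.3, 31.8 and 29.9 CPM in +/1013 and 59.3 and 53.8 CPM in 1013/1013, a log2 fold change of 0.93 (SE 0.24). The WT libraries, at 44.2, 54.6 and 72.7 CPM, lay with 1013/1013. Birc2, which encodes the ubiquitin ligase cIAP1 that restrains the same pathway, was on the lower side, at 39.9, 49.4 and 33.2 CPM against 13.7 and 16.7 CPM (log2 fold change -1.42, SE 0.36; DESeq2 adjusted p = 0.0336). Its WT libraries, at 23.8 to 48.2 CPM, lay with +/1013. The other higher genes were the splicing factor gene Sfpq (32.9 to 41.7 CPM against 86.7 and 56.5 CPM), the ubiquitin ligase gene Rnf144a (9.32 to 12.8 CPM against 41.0 and 20.3 CPM), the T-box transcription factor gene Tbx18 (11.4 to 18.4 CPM against 51.1 and 24.9 CPM), the small GTPase gene Arl16 and the protocadherin gene Pcdhb17. In these 5 genes replicate 2 lay nearer to +/1013 than replicate 1 did. The Nfkb2 transcript region overlaps that of Psd in the annotation.

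The lower genes were more even between replicates. Mettl6, a tRNA methyltransferase gene, was at 21.5, 17.7 and 16.0 CPM against 4.62 and 6.22 CPM, with a log2 fold change of -1.76 (SE 0.37; DESeq2 adjusted p = 3.64e-05). Exoc4, a subunit of the exocyst that tethers vesicles to the plasma membrane, was at 43.3, 50.7 and 54.6 CPM against 22.9 and 30.1 CPM. Parp3, which acts at DNA strand breaks, was at 56.1, 64.2 and 67.6 CPM against 29.4 and 38.9 CPM. The WT libraries lay with or above +/1013 for Exoc4 (45.6 to 52.9 CPM) and Parp3 (68.6 to 85.1 CPM), and at 12.3 to 18.3 CPM for Mettl6. Tmem94, a membrane protein gene, had its means in a stepwise order, with 24.2 to 42.4 CPM in WT, 14.1 to 15.9 CPM in +/1013, and 6.33 and 6.85 CPM in 1013/1013. The same order of means held for Parp3 and for the kinase gene Stk25, which is described below. It also held for Rpap1, which encodes an RNA polymerase II-associated protein, the nucleoporin gene Nup205, and Cad, the enzyme that starts pyrimidine synthesis. Cad was at 36.9 to 50.6 CPM, 13.1 to 30.7 CPM, and 7.78 and 10.4 CPM. Pknox2, a homeobox gene, was at 16.9 to 23.1 CPM against 7.57 and 7.93 CPM. Zfp871, a zinc finger gene, was at 57.2, 56.5 and 61.0 CPM against 38.3 and 37.3 CPM, where WT was at 35.5 to 42.1 CPM. Armcx1, on the X chromosome, was at 26.9 to 36.0 CPM against 11.1 and 17.5 CPM, again with WT (18.3 to 20.7 CPM) nearer to 1013/1013. Mettl6, Parp3 and Tmem94 overlap neighbouring genes (Eaf1, Rrp9 and Caskin2), and the strand setting of the read counting was not stated. Over the 24 named genes, the WT mean lay between the mutant genotypes for 10 of the 12 higher and 6 of the 12 lower genes.

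Within the CXCR4 axis itself, the receptor kinase gene Grk5 stood out. It was at 14.9, 13.7 and 14.9 CPM in +/1013 and at 27.9 and 26.7 CPM in 1013/1013, and WT libraries were at 15.4, 17.4 and 12.7 CPM. The 1013/1013 libraries were above all 6 others. Its log2 fold change was 0.91 (SE 0.265; edgeR adjusted p = 0.788, DESeq2 adjusted p = 0.00895), and it was 0.88 for replicate 2 alone and 0.89 for replicate 1 alone. GRK5 belongs to the kinases that phosphorylate active G protein-coupled receptors. Of the other kinases, Grk6 was at 35.9 to 61.2 CPM against 54.1 and 64.1 CPM, and Grk2 at 35.4 to 40.1 CPM against 15.8 and 57.1 CPM, on opposite sides of +/1013. Grk3 was low and overlapped, at 0, 0.695 and 1.22 CPM against 0.185 and 0 CPM (log2 fold change -2.76, SE 2.14), with WT at 2.23 to 10.2 CPM.

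Cxcr4 transcripts were low in all 5 libraries, at 0.249, 0.370 and 0.210 CPM in +/1013 and 0.139 and 1.01 CPM in 1013/1013, which lay on either side of the +/1013 range. WT replicate 3, the library with the most leukocyte transcripts, had 59.1 CPM. The ligand gene Cxcl12 was abundant, at 1986, 999 and 1243 CPM against 1004 and 1285 CPM, and the scavenging receptor gene Ackr3 was at 661, 937 and 658 CPM against 492 and 876 CPM. For both the groups overlapped. The arrestin genes Arrb1 (13.1 to 26.5 CPM against 26.1 and 21.4 CPM) and Arrb2 (3.54 to 4.77 CPM against 1.11 and 6.13 CPM) overlapped as well. The G protein subunit genes Gnai2, at 524 to 553 CPM against 654 and 591 CPM, and Gnb1, at 186 to 208 CPM against 223 and 235 CPM, were higher without overlap but by log2 fold changes of 0.20 (SE 0.168) and 0.23 (SE 0.154). Over the 17 genes of the axis, 9 were higher and 8 lower, with a median of 0.03.

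The genes of bone and cartilage did not share a pattern in the 1013/1013 libraries. Replicate 1 was mostly low, while replicate 2 lay above +/1013 for most genes of the cartilage list only. Of 18 chondrocyte genes, 17 were lower than the +/1013 fit in replicate 1 alone, with a median log2 fold change of -2.10, and 15 were higher in replicate 2 alone, with a median of 0.89. The osteoblast transcription factors had medians of -1.40 and 0.17, the 17 bone matrix and mineralization genes -1.27 and 0.39, and the BMP and TGF-beta pathway -0.72 and 0.16. Over all genes tested the medians were -0.34 and -0.02. In the same order of lists, replicate 1 lay below all 3 +/1013 libraries for 12 of 18, 7 of 12, 11 of 17 and 18 of 32 genes. Replicate 2 lay above them for 10, 3, 6 and 11 genes. Over all 17659 genes these counts were 6063 and 3859. With both libraries the 4 lists had medians of 0.08, -0.11, -0.17 and -0.07, and none of their genes was called.

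Alpl, the alkaline phosphatase that frees phosphate for mineral, was at 209, 290 and 239 CPM in +/1013 and at 24.1 and 402 CPM in 1013/1013. Sp7, the osteoblast transcription factor osterix, was at 9.72, 5.001 and 8.94 CPM against 0.0462 and 14.6 CPM. Phex, the endopeptidase gene of phosphate balance, was at 13.7, 17.6 and 18.8 CPM against 0.0462 and 12.8 CPM. In each case replicate 1 was far below the +/1013 range, at 2 reads for Sp7 and Phex. The phosphate transporter gene Slc20a2 had 0 reads in replicate 1 and 24.1 CPM in replicate 2, against 18.9 to 28.6 CPM, and its relative Slc20a1 was at 4.39 and 84.8 CPM against 40.8 to 96.0 CPM. Enpp1, which makes the mineral inhibitor pyrophosphate, was low in the same library, at 42.8 and 269 CPM against 164 to 271 CPM. Not every bone gene was low in replicate 1. Runx2, the master regulator of the osteoblast lineage, was at 6.05, 14.1 and 9.92 CPM against 11.1 and 11.2 CPM, and the collagen I gene Col1a1 at 1217, 1416 and 3557 CPM against 2064 and 3096 CPM. For these 2 genes both 1013/1013 libraries lay within the +/1013 range, and WT libraries were above it for Col1a1. Osteocalcin transcripts (Bglap and Bglap2, near-identical copies whose reads may be shared) were at 13.5 to 19.8 CPM and 11.2 to 20.4 CPM against 6.49 and 60.7 CPM and 16.9 and 38.3 CPM.

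Among cartilage genes, the matrix protein gene Comp was at 9971, 17221 and 15105 CPM against 4157 and 25331 CPM, and Chad, which encodes chondroadherin, at 5245, 10573 and 6254 CPM against 1402 and 14130 CPM. The transcription factor genes Sox5 (33.5 to 43.9 CPM against 7.94 and 46.3 CPM) and Sox6 (7.70 to 13.0 CPM against 1.39 and 15.5 CPM) and the link protein gene Hapln1 (10.7 to 38.7 CPM against 0.231 and 45.3 CPM) had the same order. In all 5, replicate 1 lay below and replicate 2 above the 3 +/1013 libraries. A mean of the 2 libraries therefore describes neither of them.

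**Figure D3:**
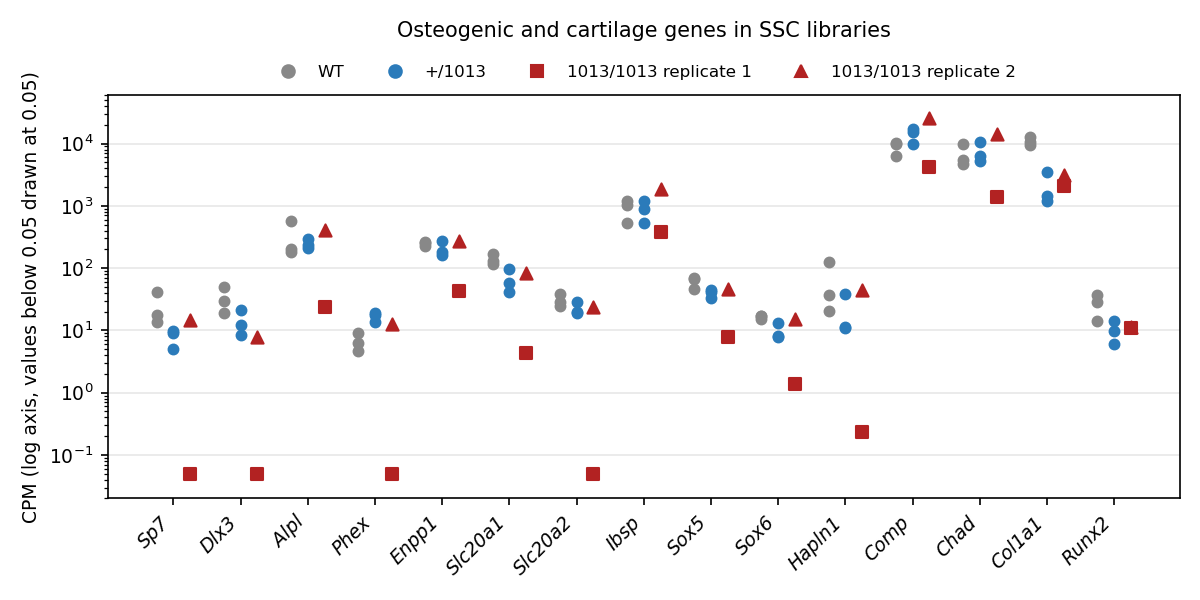
CPM on a log axis of 15 osteogenic and cartilage genes in each SSC library, by genotype, with values below 0.05 CPM drawn at 0.05. Replicate 1 of 1013/1013 (square) lies below the 3 +/1013 libraries for 13 of the genes, Col1a1 and Runx2 being the exceptions, while replicate 2 (triangle) lies within or above them for 13 genes, Dlx3 and Phex being the exceptions.

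In other lists replicate 1 was the higher of the 1013/1013 libraries. The 12 respiratory chain genes of the mitochondrial genome were all higher in replicate 1 alone, with a median of 1.87, and had a median of 0.01 in replicate 2 alone. mt-Co1 was at 951, 1683 and 527 CPM against 3087 and 1570 CPM. Genes of Sca-1-positive connective tissue fibroblasts had medians of 0.26 and -0.41, with 17 of 20 lower in replicate 2 alone. The surface peptidase gene Dpp4 was at 114, 71.0 and 93.5 CPM against 211 and 29.6 CPM, and Cd34 at 1650, 1291 and 1495 CPM against 2227 and 882 CPM. Endothelial and mural transcripts had medians of 1.20 and -0.54, and muscle and nerve transcripts 1.63 and -0.27. The summed level of the endothelial list was 81.1 to 397 CPM in +/1013 and 509 and 111 CPM in 1013/1013. The immediate-early and heat shock genes, which are induced by tissue dissociation, followed the order of the bone genes and were higher in replicate 2 alone for 26 of 27 (median 0.50) and lower in replicate 1 alone for 24 (median -0.70).

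**Figure D4:**
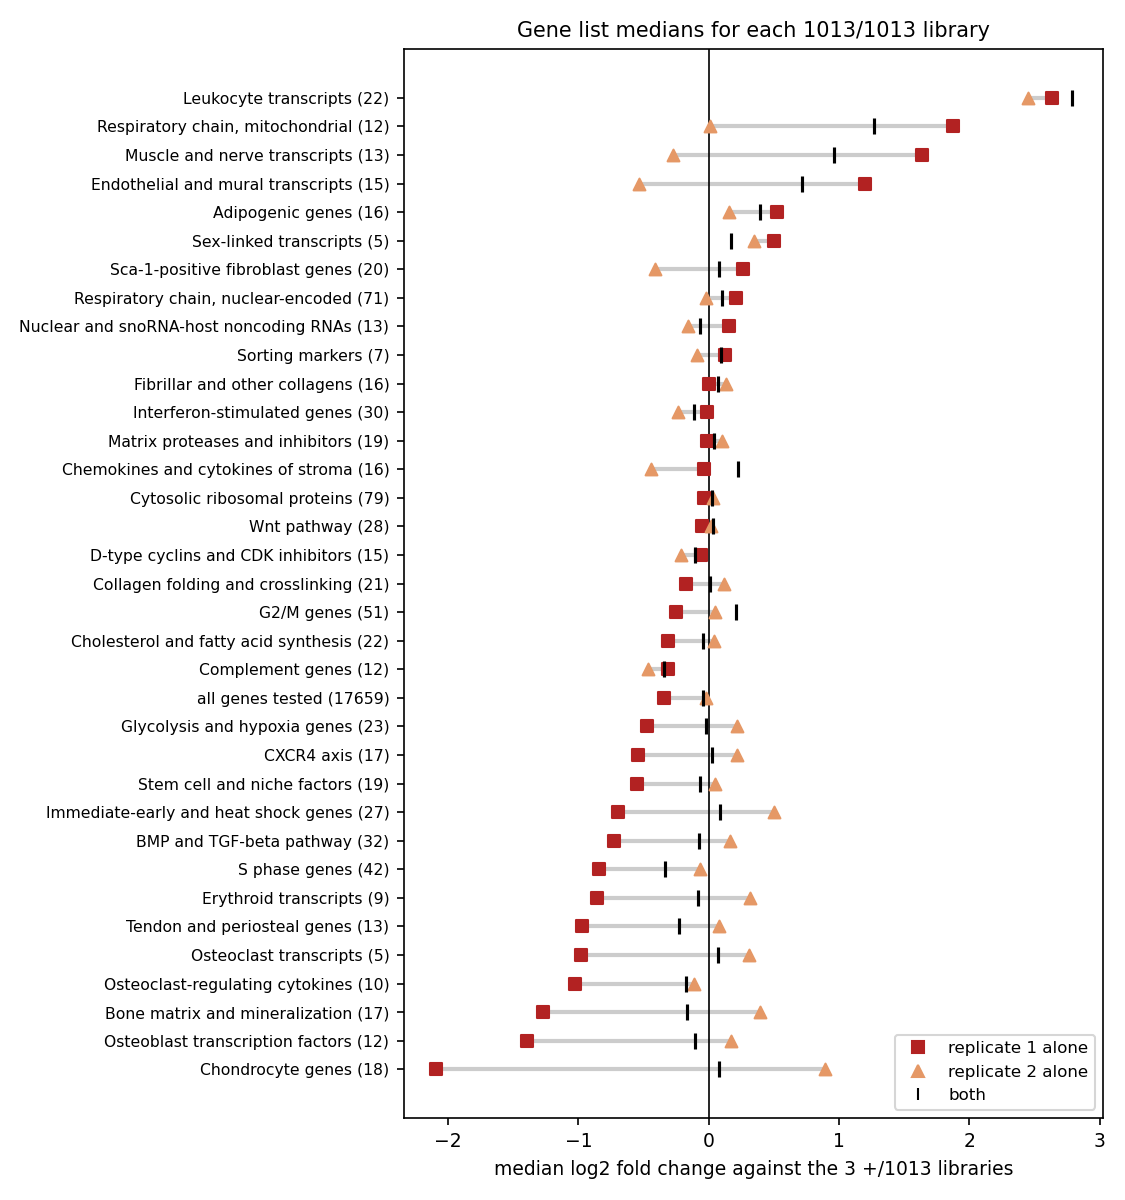
Median log2 fold change against the 3 +/1013 libraries of 34 gene lists and of all genes tested, for 1013/1013 replicate 1 alone (square), replicate 2 alone (triangle) and both (bar), with the number of genes tested in parentheses. Only the leukocyte list is above 2 for each library, and the chondrocyte list has the widest span, from -2.10 to 0.89.

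Complement genes were the list with the largest share of members below all 3 +/1013 libraries. Of 12 stromal complement genes, 11 were lower and 5 were lower without overlap (41.7%, against 8.83% of all genes), with a median of -0.34 for both libraries, -0.31 for replicate 1 alone and -0.46 for replicate 2 alone. Over all genes the single-library medians were -0.34 and -0.02, so the complement median was below that of all genes in replicate 2 and not in replicate 1. Cfb, a protease subunit of the alternative pathway, was at 14.7, 16.7 and 18.1 CPM against 9.05 and 10.4 CPM, and WT was at 5.17 to 6.20 CPM. C1qtnf1, counted among the 5, encodes a secreted C1q-related protein and is not a component of complement itself. It was at 101, 79.6 and 141 CPM against 78.5 and 67.1 CPM, a narrow separation. The C1 inhibitor gene Serping1 was at 6553, 5576 and 6162 CPM against 5261 and 4694 CPM. C3, the central component, overlapped, at 1186, 1098 and 1909 CPM against 1610 and 737 CPM. None of the 12 was at an unadjusted p under 0.05. With both libraries, lists of general cell functions had medians near that of all genes: cytosolic ribosomal proteins had a median of 0.02 over 79 genes, nuclear-encoded respiratory chain subunits 0.10 over 71, sterol and fatty acid synthesis enzymes -0.05 over 22, collagens other than collagen I 0.07 over 16, the Wnt pathway 0.03 over 28 and interferon-stimulated genes -0.12 over 30. In replicate 1 alone, where the median of all genes was -0.34, nuclear-encoded respiratory chain subunits were at 0.21, with 56 of 71 higher, and ribosomal proteins at -0.04. In replicate 2 alone these lists were at -0.02 and 0.03, against -0.02 over all genes.

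Genes of the cell cycle gave mixed counts. Of 42 S phase genes, 29 were lower and 9 lower without overlap (21.4%, against 8.83% of all genes), while 3 were higher without overlap (7.14%, against 7.05%). The list had a median of -0.33, which was -0.84 for replicate 1 alone and -0.07 for replicate 2 alone. Mcm6, a subunit of the replicative helicase, was at 47.8, 40.0 and 46.8 CPM against 6.93 and 15.6 CPM (log2 fold change -1.99, SE 0.632). Pola1, the catalytic subunit of DNA polymerase alpha, was at 19.1, 6.69 and 13.4 CPM against 0.0462 and 1.51 CPM (DESeq2 adjusted p = 0.015). Of 51 G2/M genes, 30 were higher, 8 of them without overlap (15.7%, against 7.05% of all genes), and 21 were lower, 4 of them without overlap (7.84%, against 8.83%). The G2/M median was 0.21, and it was -0.25 for replicate 1 alone, with 24 genes higher, and 0.045 for replicate 2 alone, with 26 higher. Mki67, the gene of the proliferation marker Ki-67, was at 0.456, 0.741 and 1.70 CPM against 18.1 and 4.44 CPM, while Hjurp, a chaperone of the centromeric histone, was at 52.0, 59.9 and 70.3 CPM against 39.4 and 37.6 CPM. The D-type cyclin genes overlapped for Ccnd1 (8.89 to 17.7 CPM against 13.4 and 8.29 CPM) and Ccnd2 (142 to 180 CPM against 263 and 152 CPM), and Ccnd3 was at 60.8 to 81.8 CPM against 104 and 94.3 CPM.

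For most signals to osteoclasts and to blood stem cells the groups overlapped. Csf1, the growth factor of macrophages and osteoclasts, was at 226, 185 and 275 CPM against 206 and 194 CPM. Osteoprotegerin (Tnfrsf11b) was at 118, 322 and 132 CPM against 55.4 and 286 CPM, and its target Tnfsf11, the osteoclast factor RANKL, at 0.925 to 2.78 CPM against 1.89 and 5.07 CPM. The monocyte chemokine gene Ccl2 was at 169, 350 and 24.6 CPM against 21.4 and 173 CPM, and Il6 at 241, 1114 and 167 CPM against 94.3 and 925 CPM. Of the niche factors, Lepr was at 258 to 284 CPM against 182 and 289 CPM, and Ebf3 at 4.35 to 15.1 CPM against 15.8 and 8.09 CPM. Angpt1, a ligand of the Tie2 receptor made by marrow stroma, did not overlap, at 28.3, 28.2 and 32.6 CPM against 5.10 and 11.7 CPM (log2 fold change -1.82, SE 0.848). Its WT libraries, at 10.35, 11.03 and 62.42 CPM, lay on both sides of the +/1013 values. Il7, the B cell growth factor, did not overlap either, at 7.62, 8.27 and 5.55 CPM against 0.300 and 4.44 CPM, whereas Il12a, Il11, Lif and Ltbr did. The interferon-induced chemokine gene Cxcl9 was at 0.124, 4.72 and 8.89 CPM in +/1013 and had no read in either 1013/1013 library (DESeq2 adjusted p = 0.000421). Its +/1013 level rested on 2 of the 3 libraries, and leukocytes also express it.

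Next to these lists, Caprin2 and Shc4 were the genes called when all 17 libraries shared 1 fit (edgeR adjusted p = 0.0264 for each). Caprin2, an RNA-binding protein gene, was at 6.34, 5.93 and 3.36 CPM in +/1013 and at 0.0462 and 0.113 CPM in 1013/1013, which were 2 and 5 reads. Shc4, an adaptor of receptor tyrosine kinases, was at 3.31, 2.29 and 0.946 CPM and had no read in either 1013/1013 library. By counting error alone it was at least 31.9-fold lower, with 3 reads per library taken as the limit. Replicate 1, however, had 0 reads for 579 of 11215 genes at 1 CPM or more in each +/1013 library. WT libraries expressed Caprin2 and Shc4, at 5.85 to 7.53 CPM and 1.44 to 2.83 CPM. Dyrk2, a protein kinase gene, was even within groups, at 11.8, 9.49 and 11.3 CPM against 20.7 and 19.8 CPM (log2 fold change 0.90, SE 0.27; DESeq2 adjusted p = 0.012), and WT was at 18.95 to 23.7 CPM. These 3 genes are low or moderate in level, were singled out after their values were seen, and were at an edgeR adjusted p of 0.788 in the fit of the SSC libraries.

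The same step from 1 to 2 mutant alleles was measured in OPCs, in 3 against 3 libraries, and the SSC and OPC effects were compared in the fit of all 17. No gene was called for a difference between the cell types (0 of 20238, 0%; smallest edgeR adjusted p = 0.0651, for Shc4), 1129 (5.58%) were at an unadjusted p under 0.05, and DESeq2 called 239 (1.24%). Shc4 and Caprin2 were expressed in OPCs of both genotypes, with log2 fold changes of 0.20 (SE 0.60) and 0.19 (SE 0.52). Grk5 had a log2 fold change of -0.89 (SE 0.82) in OPCs, where it was at 1.27 to 3.89 CPM against 0.12, 3.34 and 0.37 CPM. Of the 8305 genes at 10 CPM or more in SSCs, 508 differed 1.5-fold without overlap in SSCs and 204 in OPCs. There were 11 with the same direction in both, 2.17% of the SSC genes and 5.39% of the OPC genes, and 5 with opposite directions. The background for these counts is 204 of 8305 genes in OPCs, and an excess over it was not tested. Of the 11, the 4 higher ones were H2-Ab1, an MHC class II chain gene, Dock8, a guanine nucleotide exchange factor gene of leukocytes, Hcar2 and Atf7ip. The 7 lower ones were Stk25, Angpt1, Susd2, Kcns3, Enpep, Acvr2a and Gdpd5. Except for Stk25, their edgeR adjusted p in OPCs was 0.969 or more. The 10 CPM limit applied to SSCs, and Susd2, Angpt1 and Enpep were at 0.639 to 6.04 CPM in mutant OPCs. Some separations in SSCs were narrow for replicate 2. Hcar2 was at 0 to 4.353 CPM in +/1013 and at 103.8 and 4.778 CPM in 1013/1013. Acvr2a was at 42.41 to 49.85 CPM against 14.82 and 41.13 CPM, and Susd2 at 22.77 to 30.76 CPM against 9.79 and 20.6 CPM. For H2-Ab1 and Dock8 replicate 1 was the nearer one. Dock8 was at 44.37 to 96.98 CPM in WT SSCs, against 32.83 and 48.32 CPM in 1013/1013.

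Stk25, a Ste20-like kinase gene, was lower in 1013/1013 than in +/1013 libraries in both cell types, without overlap. In SSCs it was at 139.5, 134.8 and 135.4 CPM in +/1013 and 86.4 and 85.4 CPM in 1013/1013, a log2 fold change of -0.67 (SE 0.184), while WT was at 128, 173 and 140 CPM. In OPCs it was at 109.5, 97.1 and 115.8 CPM in +/1013 and 46.3, 41.8 and 43.7 CPM in 1013/1013. That was a log2 fold change of -1.29 (SE 0.147; edgeR adjusted p = 0.0101), and Stk25 was the 1 gene called in OPCs (0.00494% of 20238). WT OPCs were at 149 to 164 CPM, so the OPC levels were lower with each copy of the allele, whereas in SSCs the +/1013 libraries lay within the WT range. Stk25 lies on chromosome 1 at 93619751 to 93658659, 34.9 Mb from Cxcr4 at 128588199 to 128592293 on the same chromosome (GRCm38). It overlaps Farp2, so reads at their shared end may not be told apart. Leukocyte transcripts were also higher in 1013/1013 OPCs, with a list median of 4.76, but the replicates differed widely: Retnlg was at 8.91, 475.6 and 0.46 CPM in the 3 1013/1013 OPC replicates.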

How the data were processed

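RNA-seq was performed on 17 libraries of SSCs and OPCs, each from a pool of 3 mice, of which 5 were compared here. The authors prepared cDNA with a SMART-Seq v4 kit and Nextera XT libraries, discarded short reads, aligned paired reads with STAR to mm10 and quantified genes with HTSeq. The deposited values are raw counts per gene, not normalized. FastQC and DESeq2 are also named in the submitters' processing notes. The annotation release, tool versions and strand setting are not given in the sources used here, and 55154 of 55335 gene identifiers matched GENCODE M21. Reads on no gene, 1.50% to 2.69% of the reads of the 5 libraries, stayed out of library sizes and tests. SMART-Seq v4 amplification carries no molecular identifiers, so limits of detection cover counting error only.

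Groups were taken from the sample titles. The labels do not say that pools were independent beyond the study's description of replicates, so p-values measure the spread between these libraries. All 8 SSC libraries entered 1 quasi-likelihood fit of edgeR 4.0.16 (R 4.3.3; legacy = TRUE) after filterByExpr and TMM scaling, without covariates, and the contrast was 1013/1013 minus +/1013. Calls required a 1.5-fold change and p under 0.05 after adjustment by Benjamini and Hochberg. The standard error is the absolute log2 fold change divided by the square root of F. The difference from OPCs was a contrast in a fit of 17 libraries. DESeq2 1.42.0, other scalings and filters, a replicate block and leaving out each library were alternatives, and the script was tested on simulated data. A single 1013/1013 library was compared by leaving out the other. Named genes were those of the CXCR4 axis, sorting markers and the study's osteogenic, osteoclastogenic and niche genes, the 12 in each direction with the smallest p among genes at 10 CPM or more, 1.5-fold and without overlap (Gm and Rik models left out), and up to 4 per list with the smallest p. The members and lists were chosen with earlier results of these data known. Lists are described by counts and medians without a set test. Promoters are from RefSeq (GRCm38.p6).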

Additional observations from a re-analysis of the deposited data

How the results depend on the processing

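The count of genes called for the second allele in SSCs was 0 in the fit reported and was 246 with DESeq2 and 2 with all 17 libraries in 1 fit, and the count for the difference between SSCs and OPCs was 0 and was 239 with DESeq2; the cause was not tested. With the other scalings (DESeq2's size factors in edgeR and upper-quartile normalization), no filter on low counts, at least 10 counts in every library, the 5 libraries alone, counts thinned to the smallest library, no fold threshold and the bias-adjusted quasi-likelihood fit, edgeR called 0 genes. Leaving out 1 library gave 0 to 1812 calls in SSCs, where 1812 came without 1013/1013 replicate 2, and 0 to 1276 for the difference between cell types. Leaving out that library moved the median over all genes tested by -0.287 (log2), and every other setting moved it by 0.048 or less. The median of the Wnt list was 0.32 with at least 10 counts in every library, where 22 of its genes remained testable.

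The replicate numbers do not pair the samples: the labels tie them to no litter or day, and deviations of same-numbered libraries correlated at -0.08 to 0.10. With the replicate block edgeR called 0 genes in SSCs (smallest adjusted p 0.101), and the log2 fold change of Pdgfra became 0.001 and that of Ibsp -0.20.

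Over the fits that left out 1 library, these list medians moved by more than the spread between replicates, with their lowest and highest values: CXCR4 axis -0.54 to 0.22, Osteoblast transcription factors -1.40 to 0.17, Bone matrix and mineralization -1.27 to 0.39, Collagen folding and crosslinking -0.18 to 0.12, Chondrocyte genes -2.10 to 1.00, Adipogenic genes 0.16 to 0.53, Sca-1-positive fibroblast genes -0.41 to 0.26, Tendon and periosteal genes -0.97 to 0.081, Stem cell and niche factors -0.55 to 0.089, Osteoclast-regulating cytokines -1.02 to 0.19, Chemokines and cytokines of stroma -0.45 to 0.35, Immediate-early and heat shock genes -0.70 to 0.50, Complement genes -0.46 to -0.31, D-type cyclins and CDK inhibitors -0.21 to 0.18, Respiratory chain, mitochondrial 0.013 to 1.95, Glycolysis and hypoxia genes -0.48 to 0.22, Cholesterol and fatty acid synthesis -0.31 to 0.042, BMP and TGF-beta pathway -0.72 to 0.16, Matrix proteases and inhibitors -0.14 to 0.23, Nuclear and snoRNA-host noncoding RNAs -0.21 to 0.38, Endothelial and mural transcripts -0.54 to 1.73, Osteoclast transcripts -0.98 to 0.31. The medians of the other lists moved by less than that spread, which includes the distance between the 1013/1013 libraries. Some of them still had wide ranges. Muscle and nerve transcripts ran from -0.27 to 1.63 and erythroid transcripts from -0.86 to 0.39. S phase genes ran from -0.84 to -0.07 and G2/M genes from -0.25 to 0.42. These genes changed sign in at least 1 such fit, with their lowest and highest log2 fold changes: Grk2 -1.30 to 0.61, Cxcr4 -1.04 to 1.87, Ackr3 -0.67 to 0.22, Cxcl12 -0.54 to 0.031, Arrb1 -0.072 to 0.40, Arrb2 -1.99 to 0.54, Ptprc -3.12 to 6.44, Ly6a -0.37 to 0.43, Pdgfra -0.31 to 0.13, Itgav -0.19 to 0.24, Runx2 -0.11 to 0.46, Sp7 -7.39 to 0.89, Alpl -3.41 to 0.71, Bglap -1.37 to 1.92, Col1a1 -0.058 to 0.96, Ibsp -1.27 to 1.09, Tnfsf11 -0.16 to 1.31, Tnfrsf11b -1.84 to 0.59, Il12a -0.63 to 1.81, Ccl2 -3.14 to 0.014, Il11 -9.53 to 0.73, Ccnd2 -0.074 to 0.66, Ebf3 -0.28 to 0.74, Ltbr -0.062 to 0.15, Lepr -0.65 to 0.071. None of them had been called. The 6 myeloid genes named for their separation, Grk5, Nfkb2 and Stk25 kept their direction in every fit. Their groups did not overlap, so leaving out 1 library could hardly reverse them, and this adds no support. Depth was like in all 5 libraries, and by counting error alone it limits only genes near 0.0695 CPM. Replicate 1 of 1013/1013, however, had 0 reads for 579 of 11215 genes at 1 CPM or more in each +/1013 library. The 2 libraries of 1013/1013, which differed widely, limit every comparison.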
